A study of Mus musculus with 9 samples.

Results

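The data followed here are those of 10 genes labelled as intestinal, in the tumors of a mouse lung squamous cell carcinoma model. They are 4 transcription factors (*Cdx2*, *Isx*, *Onecut2* and *Elf3*) and 6 genes of epithelial surface, adhesion and mucus (*Cdh17*, *Muc13*, *Lgals4*, *Clca4*, *Chst4* and *Misp*). They were taken by symbol from a table of 19481 genes, in which all 10 had a row, and they were chosen by their high values in 1 tumor, sh2 replicate 2. The values in that tumor are therefore given as a description, and the comparisons below are tested on the other 8 tumors.

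The tumors grew from the line KLN205, which comes from a squamous carcinoma of mouse lung, injected under the skin of young adult female DBA/2 mice and removed on day 50. The line carried a SMART lentiviral shRNA that doxycycline switches on, and the transduced cells were selected with puromycin. Of the tumors, 3 carried sh Control, a scrambled shRNA, 3 carried sh2 Tmprss11b and 3 carried sh3 Tmprss11b, which are independent shRNAs against *Tmprss11b*, a membrane serine protease. All mice, controls included, drank doxycycline from the time the tumors had reached a set mean volume, and RNA was sequenced from a piece of each whole tumor, so host cells are part of every value and fewer cells of a kind cannot be told apart from less RNA per cell.

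In the gut, CDX2 is the homeobox factor that sets and keeps intestinal identity. It acts with other epithelial factors on genes for brush border, junction and mucus proteins, and *Isx* and *Cdh17* are among its best known targets. Adult lung and squamous epithelium do not normally use this programme, although single members such as *Elf3* are active in many simple epithelia.

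The libraries held between 20653219 and 24047784 counts, and no library stood apart by depth. *Tmprss11b* itself had 18, 51 and 42 counts in the control tumors, 7, 2 and 5 in the sh2 tumors and 10, 4 and 5 in the sh3 tumors, so both shRNA groups lay below every control tumor. The replicates are separate tumors by their labels. No gene passed an FDR of 0.05 in edgeR's quasi-likelihood test in any comparison of the 8 tumors, as the counts beside each comparison below show. Marker sums differed between tumors. Summed leukocyte markers (10 of 10 genes at 1 CPM or more) ranged from 4798 to 5673 CPM among controls, stood at 4896 and 4251 CPM in sh2 replicates 1 and 3 and at 2418 CPM in sh2 replicate 2, and were 2292, 8908 and 7788 CPM in the sh3 tumors.

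*Cdx2*, on chromosome 5 (147300900 to 147307249, build GRCm38.p6, as are all positions below), had 1954 counts in sh2 replicate 2, or 94.4 CPM (read counts scaled to library size). It stood at 4.55, 5.09 and 4.97 CPM in the control tumors, at 9.82 and 9.02 CPM in sh2 replicates 1 and 3, and at 6.04, 4.62 and 5.67 CPM in the sh3 tumors. So the remaining sh2 tumors were the highest of the 8, above all 6 others, and the control and sh3 tumors overlapped. Both sh2 tumors lay above all 6 others for 3 of the 9 genes tested (*Cdx2*, *Clca4* and *Chst4*), against 1.92% of all genes. The fitted difference of *Cdx2* between sh2 and control was 0.95 on the log2 scale (SE 0.24, unadjusted p = 0.00385), and it missed the threshold once adjusted over all 14953 genes (edgeR's quasi-likelihood test, Benjamini-Hochberg adjusted p = 1.00). Between sh3 and sh2 it was -0.81 (SE 0.24, unadjusted p = 0.00952, adjusted p = 0.970 in edgeR's test).

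**Figure D1:**
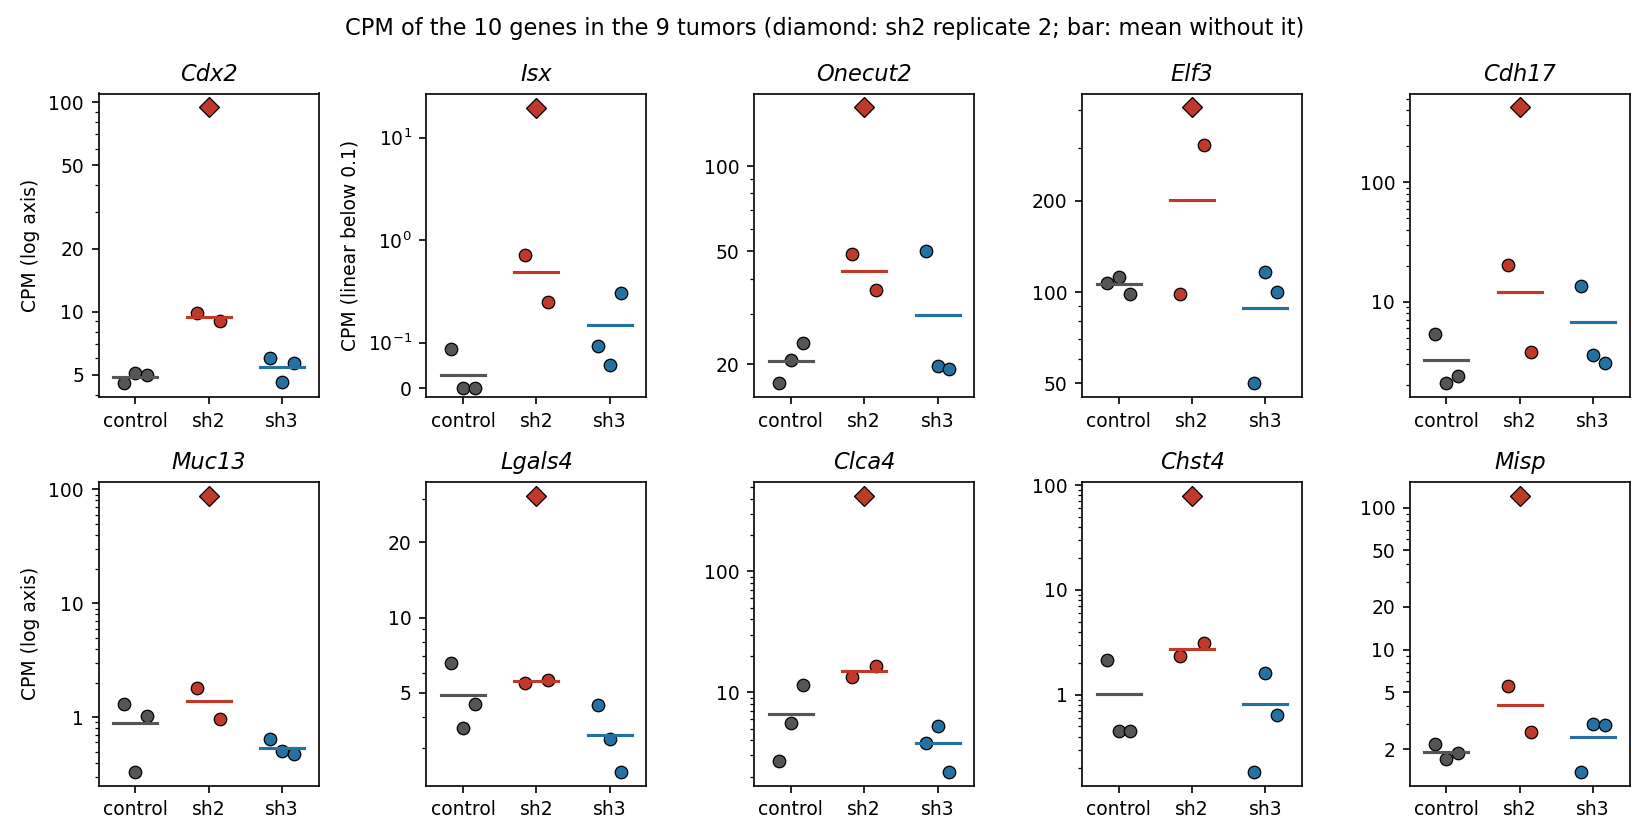
CPM of each of the 10 genes (y axis, logarithmic, for *Isx* linear below 0.1) in the 3 control, 3 sh2 and 3 sh3 tumors (x axis), 1 point per tumor, with bars for group means that leave out sh2 replicate 2 (diamond). The diamond is the highest point in every panel, and the other sh2 tumors lie above all control and sh3 tumors for *Cdx2*, *Clca4* and *Chst4*.

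*Isx*, an intestinal homeobox factor known to restrain vitamin A uptake (chromosome 8, 74873174 to 74893506), had 406 counts in sh2 replicate 2. The other sh2 tumors had 17 and 6 counts, the control tumors 2, 0 and 0, and the sh3 tumors 2, 1 and 7. A count of 0 allows up to 3 counts (0.152 CPM in the shallowest library, counting error only), and sh2 replicates 1 and 3 and sh3 replicate 3 were the 3 of the 8 tumors above that level. In CPM, sh2 replicate 1 stood highest with 0.717 CPM, and sh3 replicate 3 (0.301 CPM) and sh2 replicate 3 (0.250 CPM) lay close together. *Isx* did not pass the filter on low counts over the 8 tumors and so is not among the 9 genes tested. With no filter on low counts, its difference between sh2 and control was 3.88 (SE 1.21, unadjusted p = 0.0103, adjusted p = 1.00 in edgeR's test).

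*Onecut2* encodes a cut-homeobox factor of liver, pancreas and gut, and had 161.2 CPM in sh2 replicate 2. It stood at 17.1, 20.6 and 23.7 CPM in the control tumors, at 49.0 and 36.6 CPM in sh2 replicates 1 and 3, and at 50.3, 19.7 and 19.2 CPM in the sh3 tumors. The sh2 tumors did not overlap with the controls, and sh3 replicate 1 lay as high as the sh2 tumors while the other sh3 tumors lay among the controls. The difference between sh2 and control was 1.07 (SE 0.42, unadjusted p = 0.0337, adjusted p = 1.00, edgeR). Between sh3 and sh2 it was -0.54 (SE 0.42), and without sh3 replicate 1 it became -1.14 (SE 0.21, unadjusted p = 0.000513, adjusted p = 0.168 in edgeR's test), the lowest adjusted p of any of the genes in any setting tried.

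*Elf3*, an epithelial Ets factor (chromosome 1, 135253574 to 135258472), had 407.2 CPM in sh2 replicate 2, which was 1.34 times the next tumor. It stood at 107.2, 112.2 and 98.2 CPM in the control tumors, at 98.4 and 304.6 CPM in sh2 replicates 1 and 3, and at 49.9, 116.7 and 99.7 CPM in the sh3 tumors. Only sh2 replicate 3 was raised among the 8, and sh2 replicate 1 lay among the controls. The difference between sh2 and control was 0.92 (SE 0.46, unadjusted p = 0.0797, edgeR), and it was -0.0900 without sh2 replicate 3. Between sh3 and sh2 it was -1.20 (SE 0.46, unadjusted p = 0.0317, adjusted p = 0.970, edgeR), and -0.18 without sh2 replicate 3.

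Of the surface and mucus genes, *Cdh17*, liver-intestine cadherin (chromosome 4, 11758157 to 11817905), had 423.0 CPM in sh2 replicate 2. It stood at 5.31, 2.07 and 2.41 CPM in the control tumors, at 20.3 and 3.76 CPM in sh2 replicates 1 and 3, and at 13.6, 3.61 and 3.09 CPM in the sh3 tumors. sh2 replicate 1 and sh3 replicate 1 stood apart on the high side, and sh2 replicate 3 lay inside the control range. The difference between sh2 and control was 1.89 (SE 0.86, unadjusted p = 0.0577, edgeR), and without sh2 replicate 1 it was 0.20.

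*Muc13*, a transmembrane mucin of the gut surface (chromosome 16, 33794037 to 33819929), had 1818 counts in sh2 replicate 2, or 87.8 CPM, which was 48.4 times the next tumor. Elsewhere it was counted 31, 8 and 25 times in the control tumors, 43 and 23 times in sh2 replicates 1 and 3, and 14, 10 and 11 times in the sh3 tumors. The sh2 and control tumors overlapped, and the 3 sh3 tumors lay below both sh2 tumors. The difference between sh3 and sh2 was -1.37 (SE 0.61, unadjusted p = 0.0542, adjusted p = 0.970, edgeR).

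*Lgals4*, the gut lectin galectin-4 (chromosome 7, 28833122 to 28841710), had 30.8 CPM in sh2 replicate 2. It stood at 6.55, 3.60 and 4.48 CPM in the control tumors, at 5.48 and 5.63 CPM in sh2 replicates 1 and 3, and at 4.47, 3.25 and 2.41 CPM in the sh3 tumors. The sh2 tumors lay inside the control range. The near-identical copy *Lgals6* had between 0.844 and 0.965 times the *Lgals4* count in every one of the 9 tumors, so the 2 rows cannot be taken as separate measurements.

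*Clca4* is an older mouse symbol that RefSeq gives for *Clca3b* and for *Clca4a*. Since *Clca4a* also has the older name *Clca6*, which has a row of its own, the row is read here as *Clca3b* (chromosome 3, 144822623 to 144849302), a calcium-activated chloride channel regulator, and not as the intestinal gene that human usage calls CLCA4. It had 422.5 CPM in sh2 replicate 2. Its level was 2.68, 5.51 and 11.5 CPM among controls, 13.4 and 16.4 CPM in sh2 replicates 1 and 3, and 3.82, 5.28 and 2.19 CPM among sh3 tumors. Both sh2 tumors lay above all others, with 1 control tumor close below. The difference between sh2 and control was 1.19 (SE 0.57, unadjusted p = 0.0689, edgeR) and 1.86 without control replicate 3, and between sh3 and sh2 it was -2.01 (SE 0.57, unadjusted p = 0.00791, adjusted p = 0.970, edgeR). The neighbouring rows *Clca1* and *Clca2*, older names of the close relatives *Clca3a1* and *Clca3a2*, had 104.6 and 39.1 CPM in sh2 replicate 2 against at most 15.8 and 5.61 CPM in the other 8 tumors, and reads of such relatives may be split between the rows.

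*Chst4*, a sulfotransferase of gut mucins that is best known from high endothelial venules (chromosome 8, 110029075 to 110039401), had 1638 counts in sh2 replicate 2, or 79.1 CPM. Elsewhere it was counted 51, 11 and 11 times in the control tumors, 56 and 75 times in sh2 replicates 1 and 3, and 4, 32 and 15 times in the sh3 tumors. Control replicate 1 lay just below the sh2 tumors (2.17 CPM) and sh3 replicate 2 next (1.63 CPM). The remaining tumors lay well below, at 0.184 to 0.644 CPM. The difference between sh2 and control was 1.42 (SE 0.90, unadjusted p = 0.151, edgeR), and without control replicate 1 it was 2.59. Of the high endothelial venule list, 8 of 9 genes were at 1 CPM or more. Its sum was 59.02 CPM in sh2 replicate 2 and 41.9 and 31.97 CPM in the remaining sh2 tumors, while the controls ranged from 38.7 to 50.9 CPM and sh3 from 24.9 to 52.3 CPM. Of the 8, none was over 4 times its median in sh2 replicate 2, 2 were under 0.25 times and 2 were highest there.

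*Misp*, an actin-bundling protein of mitotic spindle and brush border (chromosome 10, 79821019 to 79830452), had 120.9 CPM in sh2 replicate 2. It stood at 2.17, 1.70 and 1.88 CPM in the control tumors, at 5.57 and 2.63 CPM in sh2 replicates 1 and 3, and at 1.38, 3.00 and 2.96 CPM in the sh3 tumors. The sh2 tumors did not overlap with the controls but did overlap with sh3. The difference between sh2 and control was 1.10 (SE 0.46, unadjusted p = 0.0430, adjusted p = 1.00, edgeR), and without sh2 replicate 1 it was 0.45.

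Per gene length, *Elf3* was by far the most abundant of the 10 in the 8 tumors, with a median of 120.0 TPM (values scaled for gene length and library size), between 58.9 and 351.4. *Lgals4* (7.53 TPM), *Cdx2* (5.67 TPM), *Onecut2* (4.00 TPM), *Clca4* (3.44 TPM), *Cdh17* (2.22 TPM), *Misp* (2.19 TPM), *Chst4* (1.09 TPM), *Muc13* (0.629 TPM) and *Isx* (0.116 TPM) followed by median level. The ranges of each neighbouring pair in that order after *Elf3* overlapped over the 8 tumors, whereas the lowest *Elf3* value lay above the highest value of every other gene, which was 14.1 TPM for *Cdh17*. In sh2 replicate 2 the order was different. There *Clca4* (281.0 TPM) and *Cdh17* (268.5 TPM) came next to *Elf3* (447.5 TPM), then *Misp* (109.5 TPM) and *Cdx2* (96.7 TPM), with *Onecut2* (26.5 TPM) and *Isx* (24.05 TPM) lowest.

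The group comparisons were then read over the 9 genes that passed the filter on low counts. Between sh2 and control, all 9 log2 fold changes were above 0, against 50.3% of all genes, with a median of 1.07 against 0.00 over all genes and a range from 0.19 (*Lgals4*) to 1.89 (*Cdh17*). Of the 9, 3 (*Cdx2*, *Onecut2* and *Misp*) had an unadjusted p under 0.05 and were higher, against 0.562% of all genes. No gene of the table passed an FDR of 0.05 in this comparison in edgeR's quasi-likelihood test (0.0% of 14953), where 163 genes had an unadjusted p under 0.05, and none passed in DESeq2 or in edgeR's likelihood ratio test. In 5 of the 9 (*Cdx2*, *Onecut2*, *Clca4*, *Chst4* and *Misp*) both sh2 tumors lay above all 3 control tumors, against 8.95% of all genes. With 2 tumors against 3, an exact permutation test cannot go below p = 0.20, which these 5 genes reached. The 9 genes are not independent of each other, and the sh2 side rests on 2 tumors.

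Between sh3 and control, 4 of the 9 log2 fold changes were above 0 (53.1% of all genes), with a median of -0.27, and *Cdh17* (1.04, SE 0.79) and *Clca4* (-0.82, SE 0.52) at the ends. None had an unadjusted p under 0.05 (3.05% of all genes did and were higher, 3.68% and were lower), and in none did the groups lie apart (6.8% of all genes higher, 5.4% lower). No gene of the table passed an FDR of 0.05 in edgeR's quasi-likelihood test (0.0%), although 1006 genes had an unadjusted p under 0.05 and DESeq2 and edgeR's likelihood ratio test called 65 and 27 genes, none of them among the 9. Exact permutation p-values over 3 tumors against 3 were 0.20 or more, where 0.10 is the smallest the design allows.

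Between sh3 and sh2, which uses the same sh2 tumors again, all 9 values were below 0 (53.5% of all genes were above 0), with a median of -0.85. *Cdx2*, *Elf3* and *Clca4* had an unadjusted p under 0.05 and were lower in sh3, against 2.70% of all genes. In 5 genes (*Cdx2*, *Muc13*, *Lgals4*, *Clca4* and *Chst4*) the 3 sh3 tumors lay below both sh2 tumors, against 8.03% of all genes. No gene passed an FDR of 0.05 in edgeR's quasi-likelihood test (0.0%, with 667 genes at an unadjusted p under 0.05), and the 14 genes that DESeq2 called and the 3 of the likelihood ratio test held none of the 9. Over both shRNAs together against control, 7 of 9 were above 0 (53.9% of all genes), with a median of 0.54. *Cdx2* alone had an unadjusted p under 0.05 and was higher, against 0.836% of all genes. Its difference there was 0.55 (SE 0.20, unadjusted p = 0.0240, adjusted p = 1.00 in edgeR's test). No gene passed an FDR of 0.05 there in edgeR's quasi-likelihood test (0.0%, with 433 genes at an unadjusted p under 0.05, and 6 called by DESeq2 and 2 by the likelihood ratio test). The smallest exact permutation p of the 9 genes there was 0.143.

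**Figure D2:**
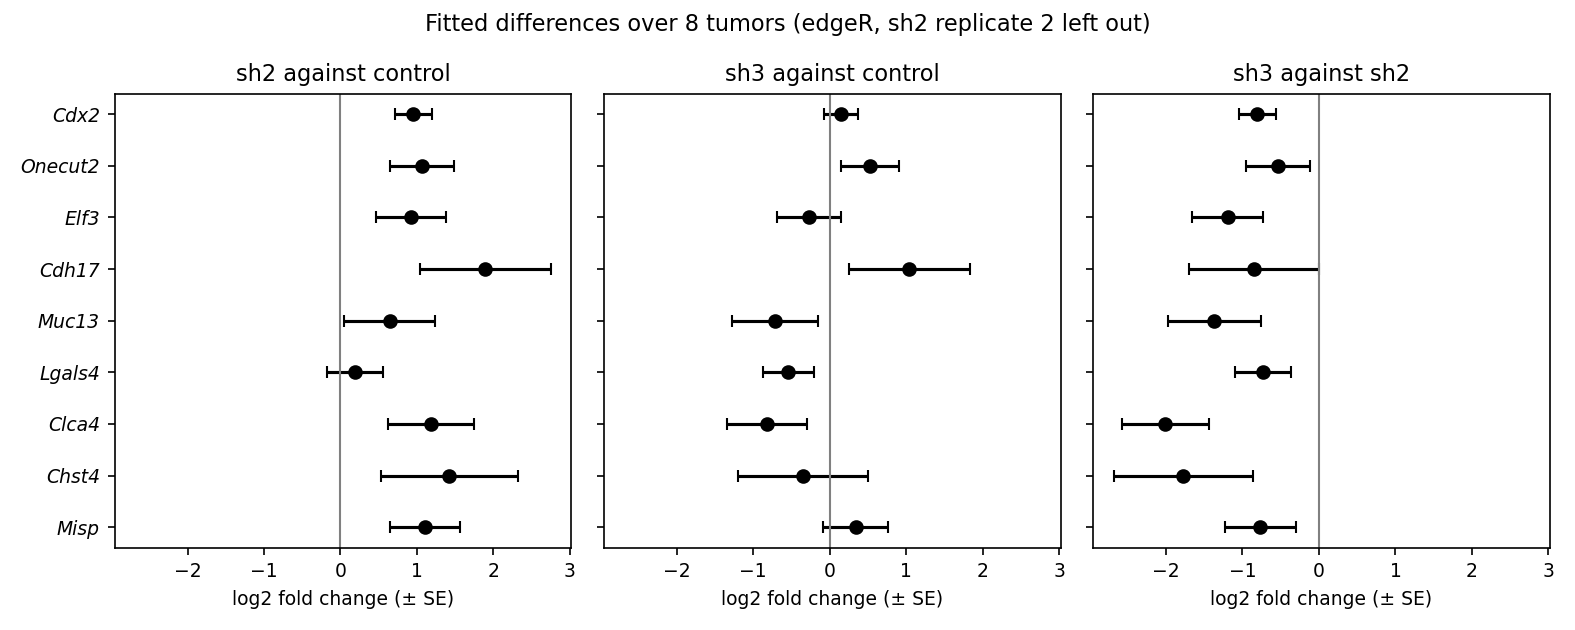
Fitted log2 fold change (x axis) with its standard error for the 9 genes tested (y axis), over 8 tumors without sh2 replicate 2, in 3 panels that share tumors. All 9 points lie right of 0 for sh2 against control and left of 0 for sh3 against sh2, and 4 of 9 lie right of 0 for sh3 against control.

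Levels of the general epithelial genes moved in the same direction and are given for that reason. All 12 of that list had a log2 fold change above 0 between sh2 and control, but with a median of 0.18, and only *Muc1* had an unadjusted p under 0.05 (1.25, unadjusted p = 0.0129, adjusted p = 1.00 in edgeR's test). Their sum ranged from 4353 to 5671 CPM among controls and from 4843 to 5519 CPM among sh3 tumors, and it was 4628 and 7501 CPM in sh2 replicates 1 and 3 and 9474 CPM in sh2 replicate 2. Of the squamous list, 0 of 11 tested genes were above 0 between sh2 and control, with a median of -1.05. The list summed to 1043, 694.8 and 326.4 CPM in the control tumors and to 370.5 and 409.1 CPM in sh2 replicates 1 and 3, and so overlapped. Its defining genes *Trp63* and *Krt5* were at 0.773 and 5.02 CPM in sh2 replicate 2, against medians of 2.28 and 0.513 CPM in the other 8, where *Krt5* reached 87.2 CPM in 1 control tumor. Lists of other cell types also moved. Between sh3 and sh2, 0 of 10 fibroblast genes were above 0 (median -0.79). Of these, 5 were lower at an unadjusted p under 0.05 in edgeR's test. Of 5 adipocyte genes, 0 were above 0 there (median -3.33). The adipocyte sum was 9.23 CPM for sh2 replicate 1 and 65.4 CPM for sh2 replicate 3. For sh3 it was 20.4, 19.2 and 8.59 CPM, so the sh2 and sh3 tumors overlapped. Between sh2 and control, 0 of 7 skeletal muscle genes were above 0 (median -4.06), and 0 had an unadjusted p under 0.05 in edgeR's test. Summed muscle markers varied widely among controls, at 367.9, 25.8 and 3044 CPM for replicates 1, 2 and 3. With 134.4 CPM, sh2 replicate 1 lay above control replicate 2, while sh2 replicate 3 had 8.76 CPM. The muscle sums of sh2 and control therefore overlapped. What these differences contribute to the levels of the 10 genes was not tested. As a description, the folds of sh2 replicate 2 over the next tumor were also computed relative to *Epcam*, *Cdh1*, *Krt8* and *Krt18*. The genes were chosen for their values in that tumor, so these folds are no test. All 10 folds were smaller on that scale. *Cdx2* was at 4.87 times the next tumor (9.61 in CPM), *Cdh17* at 10.6 times (20.9 in CPM) and *Muc13* at 24.5 times (48.4 in CPM). *Onecut2* was at 1.67 times (3.20 in CPM) and *Lgals4* at 2.48 times (4.70 in CPM), while *Elf3* went from 1.34 to 0.968 times and was no longer highest.

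How the genes moved together was measured over the 8 tumors, as the correlation of log2 CPM for the 36 pairs of the 9 genes. Of the 36 pairs, 33 had a Pearson r above 0, with a median of 0.43 and a range from -0.40 to 0.80. Without sh2 replicate 1, 26 of 36 were above 0 with a median of 0.24, and by Spearman's rho over all 8 tumors 29 were, with a median of 0.26. None passed an adjusted p of 0.05 over the 36 pairs by exact permutation, and the lowest adjusted p was 0.246. The highest r was that of *Muc13* with *Lgals4* (r = 0.80, exact permutation p = 0.0183, adjusted p = 0.246, Spearman's rho = 0.81, exact p = 0.0218, adjusted p = 0.392, n = 8), and it held without the 2 tumors farthest from the *Muc13* median (r = 0.91). *Cdx2* and *Onecut2* followed (r = 0.79, exact p = 0.0213, adjusted p = 0.246, rho = 0.81, exact p = 0.0218, adjusted p = 0.392), with r = 0.72 once sh2 replicates 1 and 3 were left out.

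Of the next pairs, *Onecut2* with *Cdh17* and *Elf3* with *Chst4* fell to near 0 when 2 tumors were left out at once. *Onecut2* with *Cdh17* had r = 0.78 (exact p = 0.0273, adjusted p = 0.246, rho = 0.40, exact p = 0.327, adjusted p = 0.769), and r = -0.12 without sh3 replicate 1 and sh2 replicate 1, the 2 tumors in which both genes were high. Without sh3 replicate 1 alone it was 0.69. *Elf3* with *Chst4* had r = 0.72 (exact p = 0.0241, adjusted p = 0.246, rho = 0.64, exact p = 0.0962, adjusted p = 0.693), and r = 0.0884 without sh2 replicate 3 and sh3 replicate 1, but 0.53 without sh3 replicate 1 alone. *Chst4* with *Misp* had r = 0.70 (exact p = 0.0467, adjusted p = 0.336, rho = 0.69, exact p = 0.0694, adjusted p = 0.693), and r = 0.66 without sh3 replicate 1 and sh2 replicate 3. The lowest was *Elf3* with *Cdh17* (r = -0.40, exact p = 0.352, adjusted p = 0.529, rho = -0.26, exact p = 0.536, adjusted p = 0.769), and r was -0.34 without sh2 replicate 3 and sh3 replicate 1.

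Fewer pairs were positive within groups. Once each group's mean was removed, 16 of 36 pairs were above 0 and the median r was -0.08. The lowest was *Elf3* with *Cdh17* (r = -0.90), the 1 pair under an adjusted permutation p of 0.05 (p = 0.0446). Removing group means ties the values within a group, so they cannot be exchanged freely between tumors. That p is therefore not exact, and no conclusion is drawn from it. Among the 6 control and sh3 tumors alone, 16 of 36 pairs were above 0, with a median of -0.10. In sh3 replicate 1 the genes parted, with *Onecut2* and *Cdh17* at the top of the sh3 range and *Elf3*, *Chst4* and *Misp* at the bottom. *Cdx2* with *Onecut2* kept its sign in both of these settings (r = 0.69 with group means removed and 0.72 in control and sh3 tumors), as did *Muc13* with *Lgals4* (r = 0.67 and 0.79). For *Cdx2* with *Onecut2*, the 0.72 is the value already given without sh2 replicates 1 and 3, as the same 6 tumors remain. Among these 6, sh3 replicate 1 was highest in both genes (6.04 CPM for *Cdx2* and 50.3 CPM for *Onecut2*). Their r without that tumor as well was not computed.

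**Figure D3:**
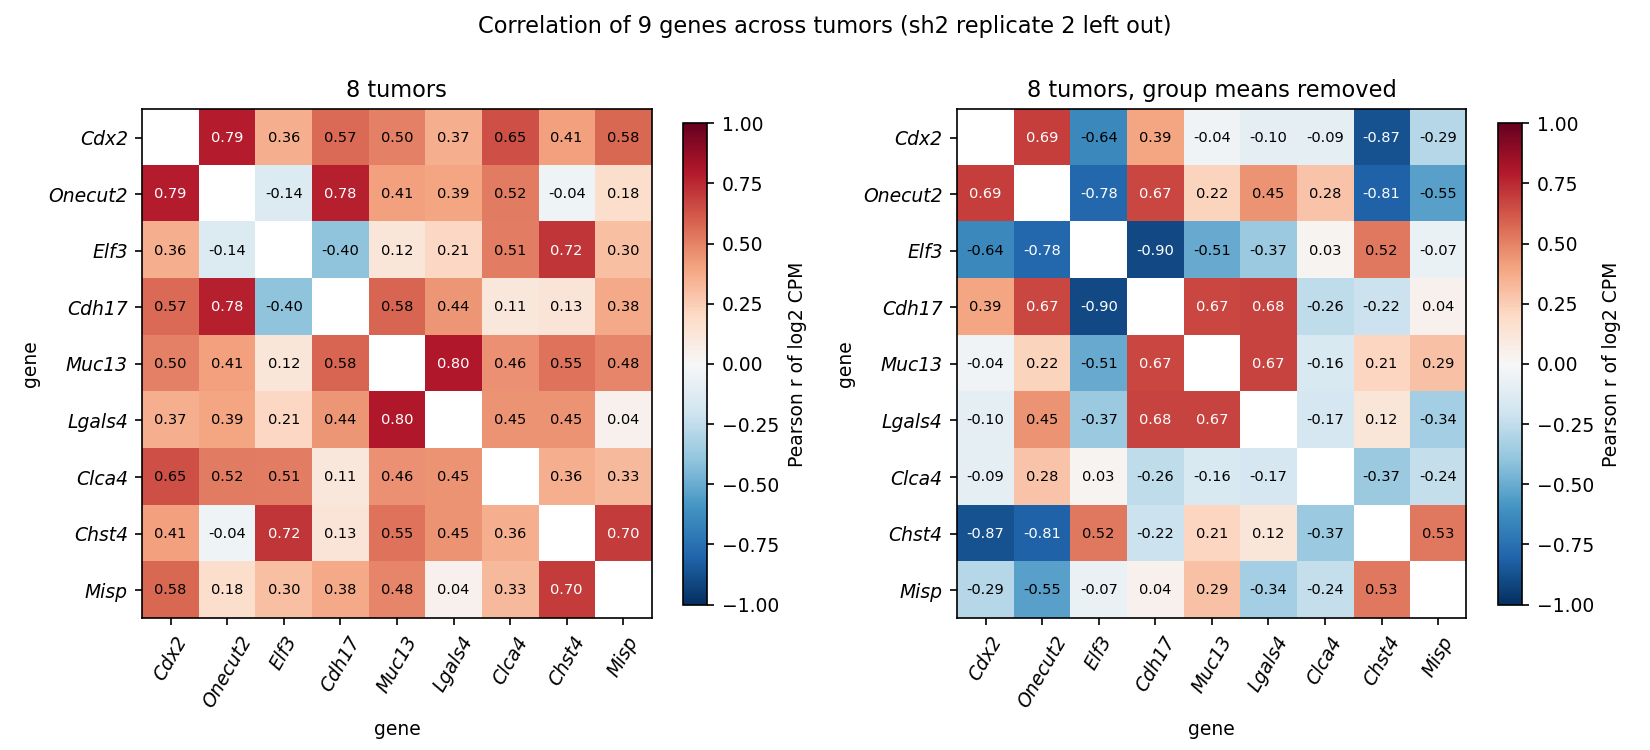
Pearson r of log2 CPM for each pair of the 9 genes (both axes), over 8 tumors without sh2 replicate 2 (left) and over the same tumors with each group's mean removed (right), with the value printed in each cell. On the left 33 of 36 pairs are above 0, and on the right 16 are.

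Against all other genes, *Cdx2* had an r over 0.5 with 5 of the 8 other genes and with 7.37% of the genes tested. In the control and sh3 tumors alone, these r were 0.72 for *Onecut2* and 0.42 for *Cdh17*. They turned negative for *Clca4* (-0.24), *Misp* (-0.41) and *Muc13* (-0.34). *Onecut2* stood at place 58 of 13609 genes at a mean of 1 CPM or more, ranked by r with *Cdx2*, and *Clca4* at 309, *Misp* at 590, *Cdh17* at 647, *Chst4* at 1804, *Lgals4* at 2278 and *Elf3* at 2326, while *Muc13* lay under that mean and was not ranked. The 10 genes most like *Cdx2* over these 8 tumors were *Parg*, *Nek4*, *Madd*, *Nr2f1*, *Cage1*, *Trappc12*, *Tdrd3*, *B4galnt2*, *Gata4* and *Pde5a*, with r from 0.95 down to 0.89. None of them was among the 10 genes chosen, and in sh2 replicate 2 they stood between 0.394 times (*B4galnt2*) and 2.83 times (*Pde5a*) the median of the other tumors. So the genes nearest to *Cdx2* in the 8 tumors did not share its high level in sh2 replicate 2. These r are descriptions over 8 points that share 3 groups.

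The label of intestinal identity was set beside wider lists in sh2 replicate 2, as a description, and it held there only in part. The lists were chosen with earlier results of these data known. *Vil1*, *Fabp1*, *Muc2* and *Krt20*, defining genes of enterocytes and goblet cells, had 7, 5, 6 and 5 counts there and *Cdx1* had 0, against at most 7, 14, 7, 3 and 1 counts in any of the other 8 tumors. *Fabp2* was at 1.01 CPM against a median of 2.78 CPM, *Lgr5*, the stem cell marker, at 7.15 against 5.73 CPM, and *Olfm4* at 0.821 against 0.463 CPM. Of 14 other intestinal transcription factors at 1 CPM or more, 0 were over 4 times the median of the other 8 tumors, and their median fold was 1.11. *Gata4*, a factor of the proximal gut, was at 26.1 CPM against 10.2 to 18.2 CPM. *Ehf*, a close relative of *Elf3*, was at 30.4 CPM against a median of 99.5 CPM, between 15.9 CPM (sh3 replicate 1) and 128.3 CPM.

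Of 19 enterocyte and brush border genes at 1 CPM or more, 4 were over 4 times the median in sh2 replicate 2, against 1.19% of all genes at that level. As the list was chosen with earlier results of these data known, this share is a description and no test. They were *Ceacam1*, an adhesion molecule of many epithelia (395.3 CPM against 4.61 to 36.1 CPM), *Lgals6*, *Myo7b*, a brush border myosin (29.0 CPM against 2.45 to 6.64 CPM), and *Eps8l3* (3.04 CPM against at most 0.632 CPM). *Lgals6* cannot be told apart from *Lgals4*, which was chosen for its value in that tumor, so it is no separate gene among the 4. *Pls1*, a brush border actin bundler, was lower there (4.64 CPM against 14.0 to 59.6 CPM). Of 7 secretory genes at that level, the goblet cell gene *Clca1* (row *Clca3*, 1.55 CPM against at most 0.379 CPM) and *Agr2* (1.84 CPM against a median of 0.380 CPM but up to 5.02 CPM) were over 4 times the median. Row *Clca3* is not the row *Clca1* named above. It lies near row *Clca4* and had 32 counts in sh2 replicate 2, where *Clca4* had 8749. Reads of such relatives may be split between rows, so row *Clca3* is not taken as separate from *Clca4*. *Chga*, of enteroendocrine cells, was lower (0.0483 CPM against a median of 0.502 CPM, between 0.129 and 4.69 CPM). That value is 1 count, under the 3 counts that a count of 0 allows. The 10 stem cell genes had a median fold of 0.971, with 0 over 4 times. Of 3 stomach genes at that level 0 were over 4 times, with *Anxa10* at 0 counts, and of 3 liver, bile duct and pancreas genes *Cftr* (11.5 CPM against 1.06 to 3.71 CPM) was, while *Afp* was at 0.241 CPM against a median of 1.08 CPM.

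The wider intestinal lists were read over the 8 tumors as well. Between sh2 and control, 9 of 16 tested transcription factors were above 0 with a median of 0.06, and *Gata4* alone had an unadjusted p under 0.05 (0.57, unadjusted p = 0.0166, adjusted p = 1.00, edgeR). Of the enterocyte and brush border list, 14 of 20 were above 0 with a median of 0.12, and *Mttp*, which loads lipid onto lipoproteins, alone had an unadjusted p under 0.05 (0.47, unadjusted p = 0.0254, adjusted p = 1.00, edgeR). The secretory list had 2 of 6 above 0 (median -0.36) and the stem cell list 8 of 12 (median 0.14), with 0 at an unadjusted p under 0.05 in both. In the comparison of sh3 with sh2, 5 of the 16 transcription factors were above 0 (median -0.11), 11 of the 20 enterocyte and brush border genes (median 0.03), 2 of the 6 secretory genes (median -0.29) and 3 of the 12 stem cell genes (median -0.53). In these lists 1, 2, 0 and 3 genes in turn had an unadjusted p under 0.05 in edgeR's test and were lower in sh3.

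**Figure D4:**
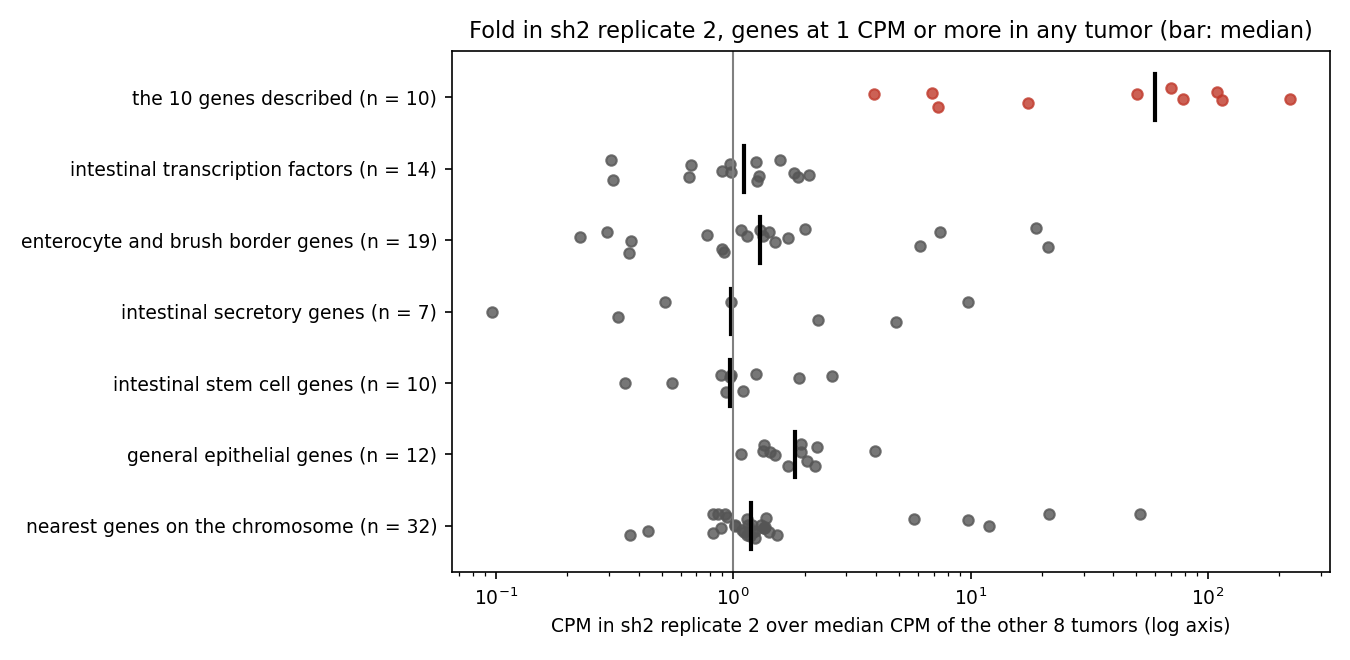
CPM in sh2 replicate 2 over the median CPM of the other 8 tumors (x axis, logarithmic) for the 10 genes, for 5 gene lists and for the nearest genes on the chromosome (y axis), 1 point per gene with a bar at the median. The 10 genes, picked for this value, lie between 3.94 and 221.4 times, and the medians of the other rows lie between 0.971 and 1.82 times.

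All 10 genes were highest in sh2 replicate 2 (15.1% of 14501 genes at 1 CPM or more in any tumor were), and 7 of them were over 5 times the next tumor (0.255% of those genes), which the choice of genes fixed. Of genes not among the 10, 11 were over 10 times the next tumor there. The highest by that fold were *H60c*, a ligand of a natural killer cell receptor (68.6 CPM, 41.7 times), *Tacr3*, a tachykinin receptor (10.4 CPM, 41.2 times), and *BC021614* (76.5 CPM, 27.9 times). Others were *Aldh1a3*, which makes retinoic acid (1232 CPM against 11.2 to 68.0 CPM), *Trpm6*, a magnesium channel of gut and kidney (490.0 CPM against 2.99 to 46.8 CPM), *Fut2*, a fucosyltransferase of mucosal glycans (22.2 CPM against at most 1.45 CPM), and *Cd55* (204.8 CPM against 10.4 to 20.2 CPM). These 7 were named after their values were seen. Of the 40 genes lying nearest to the 10 on their chromosomes, in RefSeq order and not among the 10, 32 were at 1 CPM or more in any tumor, with a median fold in sh2 replicate 2 of 1.19. Of these, 5 were over 4 times the median: *Clca1*, *Clca2*, *Clca3*, *Lgals7* and *Gpr37l1*. Around *Cdx2*, *Polr1d* and *Lnx2*, which lie on the same side of it, were at 0.866 and 1.02 times the median. On its other side, *Flt3* was at 0.367 times (0.724 CPM against 1.20 to 2.88 CPM). *Urad*, also on that side, had 3 counts against 0 in every other tumor.

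Promoter sequence was read from RefSeq (build GRCm38.p6) for 7 of the 10 genes, as 8 windows of the 250 bases before a start, with none read here for *Cdh17*, *Misp* and *Onecut2*. CATAAA, the core letters bound by CDX factors, was searched on both strands and was in 3 of the 8 windows (*Muc13*, *Clca3b* and *Chst4*), against 10.8% of 32817 promoter windows of the same length. TATAAA, which is also the TATA box, was in 0 of 8 (12.4% of all), ATTGAT, of the Onecut type, in 0 (6.73%), AGGAAG, of the Ets type, in 4 (29.5%), and CAAAGTCCA, of the Hnf4 type, in 1 (0.384%), the second *Muc13* start. The windows of *Lgals4* and of the second *Muc13* start lie inside the bounds of their genes given above. The first of these holds 1 of the AGGAAG matches and the second the CAAAGTCCA match. A match is a description of letters and does not show binding. The windows of *Cdx2*, *Isx*, *Elf3* and *Lgals4* and that of the second *Muc13* start had no CATAAA. All 10 genes were chosen by their values in sh2 replicate 2, so the level there does not set the 3 genes with a match apart. The 3 windows with CATAAA are shown with the match in capitals and the strand of the gene read 5′ to 3′. They are chr16:33793787-33794036 (plus strand) for *Muc13*, chr3:144849303-144849552 (minus strand) for *Clca3b*, and chr8:110039402-110039584 (minus strand) for *Chst4*, the last cut to the 183 bases outside the gene's own RefSeq bounds. The match begins 180 and 30 bases before the start for *Muc13* and *Clca3b*.
Muc13: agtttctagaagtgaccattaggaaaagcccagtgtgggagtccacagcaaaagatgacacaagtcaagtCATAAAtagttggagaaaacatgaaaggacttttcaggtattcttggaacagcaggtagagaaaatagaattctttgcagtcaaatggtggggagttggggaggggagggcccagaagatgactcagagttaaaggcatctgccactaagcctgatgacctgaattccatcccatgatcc
Clca3b: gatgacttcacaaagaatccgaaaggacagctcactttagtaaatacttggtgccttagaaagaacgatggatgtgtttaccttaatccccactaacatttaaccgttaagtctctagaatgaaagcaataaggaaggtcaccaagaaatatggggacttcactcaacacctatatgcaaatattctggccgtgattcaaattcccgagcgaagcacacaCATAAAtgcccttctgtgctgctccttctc
Chst4: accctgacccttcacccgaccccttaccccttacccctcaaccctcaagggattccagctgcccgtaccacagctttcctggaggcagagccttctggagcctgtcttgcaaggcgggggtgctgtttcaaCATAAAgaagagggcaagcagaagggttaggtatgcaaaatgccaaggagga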

How the data were processed

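RNA-seq of poly-A RNA (TruSeq Stranded mRNA) was measured in 9 tumors. Per the submitters' processing notes, the authors used FastQC, STAR 2.5.3a, featureCounts and edgeR with mm10, and the annotation and strand setting are not given in the sources used here. The deposited table holds, for 19481 genes, raw read counts, CPM (a signal scaled by the authors to the library total times its TMM factor) and TPM. CPM computed here differed from the deposited CPM by at most 4.73e-11. Columns of the authors' own comparisons (fold changes, p-values and FDR) were not used.

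Groups and replicate numbers came from the labels, and labels sh2 and sh3 are the study's 2 Tmprss11b shRNAs. Raw counts of 8 tumors, without sh2 replicate 2, were fitted with edgeR 4.0.16 (R 4.3.3; filterByExpr, TMM, robust quasi-likelihood test, Benjamini-Hochberg adjustment over all 14953 genes tested, FDR threshold 0.05). DESeq2 1.42.0 and other settings were alternatives. Exact permutation tests were two-sided. Correlations used log2 CPM with a prior count of 2. On data simulated for sh2 against control (14830 genes), 17.5% of changes of 1 on the log2 scale and 73.75% of changes of 2 were called, and 4.85% of unchanged genes had an unadjusted p under 0.05. Counts were simulated independently for each gene, without deviations that a whole tumor shares. In the fit of the tumors themselves, only 163 of 14953 genes had an unadjusted p under 0.05 in edgeR's test. The simulated shares may therefore not hold for these tumors. Replicate numbers were checked and do not pair the tumors (the closing section gives the check).

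The 10 genes and the marker lists were chosen with earlier results of these data known. Genes named in the text were the 10 genes, Tmprss11b (row Tmprss11bnl), up to 6 genes of each intestinal list over 4 times or under 0.25 times the median of the other 8 tumors in sh2 replicate 2, fixed defining markers, the 10 genes most like Cdx2, and the nearest genes on each side of each gene. Outside this rule, 7 genes high in sh2 replicate 2 (H60c, Tacr3, BC021614, Aldh1a3, Trpm6, Fut2 and Cd55) and Muc1, Mttp, Ehf, Anxa10, Cftr and Afp were named after their values were seen. Some marker genes were not analysed here.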

Additional observations from a re-analysis of the deposited data

How the results depend on the processing

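No alternative brought any of the 9 tested genes past an FDR of 0.05, and no change of normalization or filter turned the direction of one. DESeq2's Wald test called 65 genes of the whole table between sh3 and control, 6 for both shRNAs and 14 between sh3 and sh2, and edgeR's likelihood ratio test called 27, 2 and 3. With all 9 tumors, *Muc13* and *Lgals4* turned to 2.18 and 0.49 for both shRNAs against control, and 28 of 36 pairs passed as correlated, which the choice of genes by their values in that tumor fixes, so it is no test. With group means removed 1 pair passed, by a permutation p that is not exact on such values. Using control and sh3 tumors only, an alternative chosen after seeing the data, 0 pairs passed.

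Leaving out 1 tumor at a time, the log2 fold change of *Elf3* ranged from -0.0900 to 1.52 between sh2 and control, from -0.51 to 0.0265 between sh3 and control and from -0.18 to 0.62 for both shRNAs, turning sign without sh2 replicate 3 (first and last) and without sh3 replicate 1. Between sh3 and control, *Onecut2* ranged from -0.0815 to 0.77 (turning without sh3 replicate 1) and *Chst4* from -1.29 to 0.81 (turning without control replicate 1 or sh3 replicate 1). For both shRNAs, *Muc13* ranged from -0.43 to 0.35, *Lgals4* from -0.35 to 0.0906 and *Clca4* from -0.19 to 0.86, each turning without control replicate 1, and *Muc13* also without control replicate 3, sh2 replicate 3 or sh3 replicate 3. Between sh3 and sh2, *Cdh17* ranged from -1.84 to 0.85 (turning without sh2 replicate 1). The cause was not tested. Genes of the whole table at an unadjusted p under 0.05 then numbered 102 to 389 between sh2 and control, 556 to 2658 between sh3 and control, 244 to 1093 for both shRNAs and 184 to 2328 between sh3 and sh2, highest without sh3 replicate 1 in all 4 and lowest without sh2 replicate 3 (first and last) or control replicate 3. Where sh2 kept 1 tumor, it was assumed to vary like the other groups.

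Tumors that share a replicate number did not deviate together (7 pairs, mean correlation -0.12, range -0.38 to 0.12, against 0.06 for other pairs), so the numbers do not pair them. With the replicate number as a block, 0 genes passed in each comparison (130, 629, 277 and 325 at an unadjusted p under 0.05, in the same order) and *Cdx2* stood at 0.91 between sh2 and control. Depth limits *Isx*, with at most 17 counts in the 8 tumors.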
